A study of Homo sapiens with 6 samples.

Results

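N6-methyladenosine (m6A), the most common internal mark of messenger RNA, is put on by writers and taken off by erasers. In the main writer, METTL3 carries the catalytic site and METTL14 holds the RNA, while WTAP, VIRMA, RBM15 and ZC3H13 bring this pair to its targets in the nucleus. METTL16 is a separate writer that acts on U6 small nuclear RNA and on the MAT2A transcript. FTO and ALKBH5 are the erasers, both of them dioxygenases that use iron and 2-oxoglutarate, and m6A loss through erasers has been tied to stem-like behavior in several cancers. These 9 genes were taken by name for their role in the pathway, with no threshold on their values but with earlier results of these data known, out of 49795 genes with at least 1 count, and all 9 passed the expression filter that left 20442 genes tested.

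Their transcripts were measured by lncRNA-seq of total RNA in MDA-MB-231 cells made resistant to paclitaxel. MDA-MB-231 is a human breast cancer line of the triple-negative type, and the cells were sorted by the activity of aldehyde dehydrogenase (ALDH). The 3 libraries titled BCSC are breast cancer stem-like cells (ALDH+) and the 3 titled non-BCSC are ALDH− cells, and the drug resistance is common to both groups. The cell type label is the same for all 6 libraries, so the groups came from the sample titles. All libraries stem from 1 cell line, and whether they came from separate cultures or sorts is not stated, so p-values measure the spread between these libraries, which may be technical. In bulk RNA, fewer cells of a type and less RNA per cell cannot be told apart.

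Total counts were 15925943 to 21215352 in BCSC against 9898588 to 12263667 in non-BCSC, so every BCSC library was deeper. Of the sort and line markers, CD44 was higher in BCSC (log2 fold change 0.86 ± 0.11 SE, edgeR adjusted p = 0.00108), whereas the aldehyde dehydrogenase genes did not follow the sort label as a group. In all, 9 of these 11 markers were tested, and 1 was higher and 3 lower at adjusted p under 0.05 (ALDH1A1, ALDH3A1 and PGR). CD24, a further marker planned for the sort label, was not found by name in the annotation and was not read. ALDH1A1 was lower in BCSC, with 0 to 6 counts against 28 to 38, ALDH3A1 was also lower (-1.49 ± 0.50, adjusted p = 0.0484), and ALDH1A3 had a mean of 29.8 CPM (counts after scaling each library to a common total) in BCSC and 17.5 in non-BCSC (adjusted p = 0.0577). The mesenchymal marker VIM was at 3418 ± 412 CPM in BCSC against 2793 ± 506 in non-BCSC (SD, n = 3 each), while ESR1, PGR, CDH1 and EPCAM had means of at most 13.9 CPM in either group. PROM1 was at 0 counts in all BCSC libraries and at 0, 12 and 49 in non-BCSC. ERBB2 was at 64.7 ± 8.71 and 78.3 ± 11.5 CPM. The 407 olfactory receptor genes, which breast cells are not known to express, took 39.6, 55.5 and 152 CPM of the unscaled totals in the BCSC libraries, with 540, 698 and 1231 CPM in the non-BCSC ones. For this level, a gene's length was the unweighted mean over its annotated transcripts. ALDH1A1 lay near this level, at 2.32 times what it gives for a gene of its length in BCSC and 3.30 times in non-BCSC. With this level subtracted its log2 fold change was -3.93 (edgeR adjusted p = 0.0569). GC content also moved with the groups. Across the 20442 genes, the Spearman correlation between GC content and log2 fold change was 0.54, and over the 5661 genes that averaged 500 counts or more it was 0.47. Genes of one library share its composition, so these are descriptions without a test. The part of depth, background and GC content in the results was not tested. Main values after a correction for GC and length are given with the results.

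The promoters of 3 members are shown because ALKBH5 and RBM15 had the largest fold changes of the 9 and FTO the lowest, and because the study followed HIF1α, the hypoxia factor that binds the cores ACGTG and GCGTG. Sequences are RefSeq windows on GRCh38.p14, 250 bases before to 50 bases after the start site, written 5′ to 3′ on the gene's strand, with the cores on either strand in capitals (CACGT and CACGC are their reverse complements).
ALKBH5 (chr17:18183578-18183877, plus strand): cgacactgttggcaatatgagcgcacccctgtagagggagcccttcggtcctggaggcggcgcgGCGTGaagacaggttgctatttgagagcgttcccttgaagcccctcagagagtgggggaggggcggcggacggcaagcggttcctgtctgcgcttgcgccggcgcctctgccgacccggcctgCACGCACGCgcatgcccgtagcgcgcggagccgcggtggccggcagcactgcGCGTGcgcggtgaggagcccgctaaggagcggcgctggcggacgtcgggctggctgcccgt
RBM15 (chr1:110339127-110339426, plus strand): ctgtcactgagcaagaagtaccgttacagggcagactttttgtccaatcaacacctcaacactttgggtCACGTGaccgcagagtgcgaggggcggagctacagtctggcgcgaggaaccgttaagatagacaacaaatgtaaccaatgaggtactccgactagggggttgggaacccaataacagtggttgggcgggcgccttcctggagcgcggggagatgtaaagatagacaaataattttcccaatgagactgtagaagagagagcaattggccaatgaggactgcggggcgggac
FTO (chr16:53703906-53704205, plus strand): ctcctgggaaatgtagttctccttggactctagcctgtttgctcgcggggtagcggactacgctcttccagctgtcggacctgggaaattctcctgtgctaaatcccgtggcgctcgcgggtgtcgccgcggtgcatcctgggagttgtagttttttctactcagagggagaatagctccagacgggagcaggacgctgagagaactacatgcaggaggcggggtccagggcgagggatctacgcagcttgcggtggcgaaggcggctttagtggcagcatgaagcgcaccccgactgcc
The ALKBH5 window is 71.0% GC and holds 4 matches, of which the pair at -63 and -59 overlaps. The RBM15 window is 52.7% GC, and its 2 matches are the same 6 bases read on both strands. No match lies in the FTO window, which is 60.0% GC. Of all 35116 windows of this length, 48.4% hold at least 1 core and 4.4% hold at least 4, and the median window is 58.7% GC. A match is a run of letters and not a binding site. Windows were found for 8 of the 9 members, all but VIRMA. Of those not shown, METTL3 held 2 matches, WTAP 2 and 1 in its 2 windows, ZC3H13 1, METTL16 1 and METTL14 0. Any link between matches and fold change was not tested.

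ALKBH5 was the 1 member called changed and was higher in BCSC, a call that was lost under each GC correction. ALKBH5 (ENSG00000091542, chr17:18086392-18113268 on GRCh37, as for the other gene positions) had 130.0, 86.8 and 101 CPM in the BCSC libraries and 51.5, 55.7 and 26.5 CPM in non-BCSC. Every BCSC library lay above every non-BCSC library, and the 3rd non-BCSC library was the lowest of the 6. The means were 106 ± 22.0 against 44.6 ± 15.8 CPM (SD, n = 3 each), a 2.37-fold difference (log2 fold change 1.25 ± 0.26 SE, edgeR adjusted p = 0.00891). The 2639, 1331 and 1669 counts in BCSC against 624, 631 and 276 in non-BCSC are well above the olfactory receptor level, 19.9 times what that level gives for a gene of its length in non-BCSC and 459 times in BCSC. At 57.3% GC, ALKBH5 had the highest GC content of the 9 members. Its difference fell to 0.37 (adjusted p = 0.293) with a GC and length curve fitted on all genes, and to 0.40 (adjusted p = 0.173) with a curve fitted on genes of 500 counts or more (well-counted genes). Leaving out each library in turn, with no correction, gave 1.003 to 1.48 on the log2 scale and the call held each time. After the all-gene curve the BCSC libraries were at 75.9, 68.3 and 89.2 corrected CPM and the non-BCSC libraries at 60.5, 83.6 and 37.04, and the groups overlapped. With background removal and GC correction together the value turned to -0.43 (adjusted p = 0.179).

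FTO, which also demethylates the base next to the cap, showed the opposite direction and did not pass the test. FTO (ENSG00000140718, chr16:53735604-54192424) had 213, 203 and 206 CPM in BCSC against 278, 279 and 223 CPM in non-BCSC. All non-BCSC libraries were above all BCSC libraries, with 2 of them close together and the 3rd nearer to BCSC. The means were 207 ± 4.76 and 260.0 ± 31.8 CPM, a log2 fold change of -0.33 ± 0.11 SE (adjusted p = 0.0511). The value was negative under each of 18 alternative settings, from -0.90 to -0.12, with adjusted p-values from 0.000241 to 0.598. With the curve of well-counted genes it was -0.64 (adjusted p = 0.000600), and with the curve fitted on all genes -0.13 (adjusted p = 0.598). FTO is 46.3% GC.

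**Figure D1:**
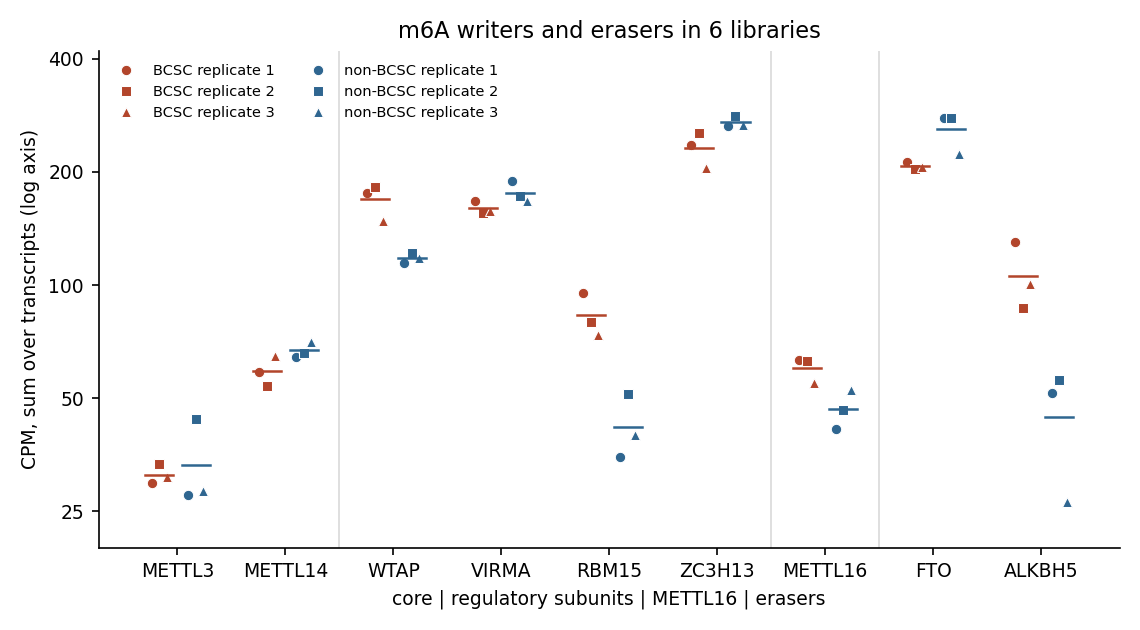
CPM summed over each gene's transcripts (log axis) for the 9 members, 1 point per library and a line at each group mean, BCSC in red and non-BCSC in blue. ALKBH5, RBM15, WTAP and METTL16 have all BCSC points above all non-BCSC points, FTO, ZC3H13 and VIRMA have the reverse, and METTL3 and METTL14 overlap.

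Neither gene of the catalytic pair passed the test in the uncorrected fit. METTL3 (ENSG00000165819, chr14:21966277-21979484) was the least counted member, with 29.7, 33.4 and 30.8 CPM in BCSC against 27.6, 44 and 28.4 CPM in non-BCSC. The BCSC values lay inside the range of non-BCSC, where replicate 2 stood above the others. The log2 fold change was -0.09 ± 0.22 SE (adjusted p = 0.780), and it was 0.21 without non-BCSC replicate 2. Under the all-gene and well-counted curves METTL3 was at 0.15 and -0.36 (adjusted p = 0.668 and 0.235), and with background removal and GC correction at -0.73 (adjusted p = 0.0412). Over its protein-coding transcripts alone it was at -1.01 (adjusted p = 0.213). METTL14 (ENSG00000145388, chr4:119606547-119636588) was at 58.7, 53.9 and 64.7 CPM in BCSC against 64.4, 66.0 and 70.7 CPM in non-BCSC, groups that overlapped by 1 library. Its log2 fold change was -0.18 ± 0.14 SE (adjusted p = 0.335). METTL14 has the lowest GC content of the members (38.4%), and under the all-gene curve it was 0.75 higher in BCSC on the log2 scale (adjusted p = 0.00869), against -0.23 (adjusted p = 0.175) under the curve of well-counted genes.

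Among the regulatory subunits, RBM15 and WTAP were higher in BCSC, and VIRMA and ZC3H13 did not pass the uncorrected test. RBM15 (ENSG00000162775, chr1:110881128-110889303), an RNA-binding subunit that recruits the complex to its sites, had 95.4, 79.9 and 73.7 CPM in BCSC against 34.8, 51.3 and 39.8 CPM in non-BCSC. The groups did not overlap. The means were 83.0 ± 11.2 and 41.99 ± 8.47 CPM, a 1.98-fold difference (log2 fold change 0.98 ± 0.18 SE, adjusted p = 0.00481), just under the 2-fold minimum for a call. It was past that minimum without BCSC replicate 2 (1.04), BCSC replicate 3 (1.06) or non-BCSC replicate 2 (1.199), and from 0.87 to 0.97 without each of the others. RBM15 is 53.8% GC, next after ALKBH5, and it was at 0.42 (adjusted p = 0.144) and 0.23 (adjusted p = 0.384) under the all-gene and well-counted curves. With background removal and GC correction it turned to -0.39 (adjusted p = 0.282).

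WTAP (ENSG00000146457, chr6:160146617-160177351), which keeps METTL3 and METTL14 in nuclear speckles, had 176, 183 and 148 CPM in BCSC against 114, 122 and 118 CPM in non-BCSC. All BCSC libraries were above the narrow non-BCSC range. The log2 fold change was 0.52 ± 0.11 SE (adjusted p = 0.0106), and at 43.4% GC it stayed at 0.48 (adjusted p = 0.00717) under the curve of well-counted genes and reached 1.38 (adjusted p = 0.000601) under the all-gene curve. Leaving out each library in turn gave 0.49 to 0.60, with adjusted p-values up to 0.0516, the highest without BCSC replicate 2. WTAP shares 437 bases with SOD2 on the opposite strand, and SOD2 had 6624, 5445 and 6507 counts in BCSC against 1703, 1514 and 1443 in non-BCSC. Per the labels, the strand made with dUTP was removed, which keeps strand, but whether strand was used in counting is not stated, and without it reads over the shared bases cannot be told apart. The part of SOD2 reads in the WTAP value was not tested.

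VIRMA (ENSG00000164944), the scaffold that directs methylation toward stop codons, had 167, 156 and 157 CPM in BCSC against 189, 172 and 167 CPM in non-BCSC. The highest BCSC library (166.84 CPM) and the lowest non-BCSC library (166.87 CPM) were nearly equal, and the log2 fold change was -0.14 ± 0.10 SE (adjusted p = 0.316). ZC3H13 (ENSG00000123200, chr13:46528600-46626894), which holds the complex in the nucleus, was the most counted member, at 236, 253 and 205 CPM in BCSC against 265, 282 and 266 CPM in non-BCSC. Its non-BCSC libraries were all higher, but the log2 fold change of -0.23 ± 0.11 SE had an adjusted p of 0.127. It was -0.33 (adjusted p = 0.0293) under the curve of well-counted genes and 0.45 (adjusted p = 0.101) under the all-gene curve, so the sign depends on the correction, as it does for VIRMA (-0.18 and 0.66). METTL16 (ENSG00000127804, chr17:2308856-2415185) had 63.1, 62.7 and 54.9 CPM in BCSC against 41.5, 46.6 and 52.5 CPM in non-BCSC. The groups did not overlap, although the lowest BCSC and highest non-BCSC libraries were close, and the log2 fold change was 0.36 ± 0.15 SE (adjusted p = 0.0950). It was 0.39 and 0.06 under the all-gene and well-counted curves (adjusted p = 0.101 and 0.780).

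Counted together, 1 of the 9 members was called higher (adjusted p under 0.05 and more than 2-fold) and none lower, where 8.85% of all genes tested were called higher and 11.3% lower. At adjusted p alone, 3 were higher (ALKBH5, RBM15 and WTAP), where 15.3% of all genes were, and 0 were lower, where 14.6% were. The count of lower members was not stable, being 2 (FTO and ZC3H13) under RLE size factors, DESeq2, the filter of 10 counts in every library or protein-coding transcripts alone, and 3 with background removed (VIRMA as well). At an unadjusted p under 0.05 and more than 2-fold the count was again 1 higher and 0 lower, and DESeq2 also called 1 higher and 0 lower. All BCSC libraries were above all non-BCSC libraries for 4 members against 24.2% of all genes, and below them for 3 members against 27.9%. The median log2 fold change of the 9 was -0.09, beside -0.05 over all genes tested and 0.18 over the well-counted genes. The single call among 9 genes is close to the share over all genes, and the other counts are descriptions of a short list.

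**Figure D2:**
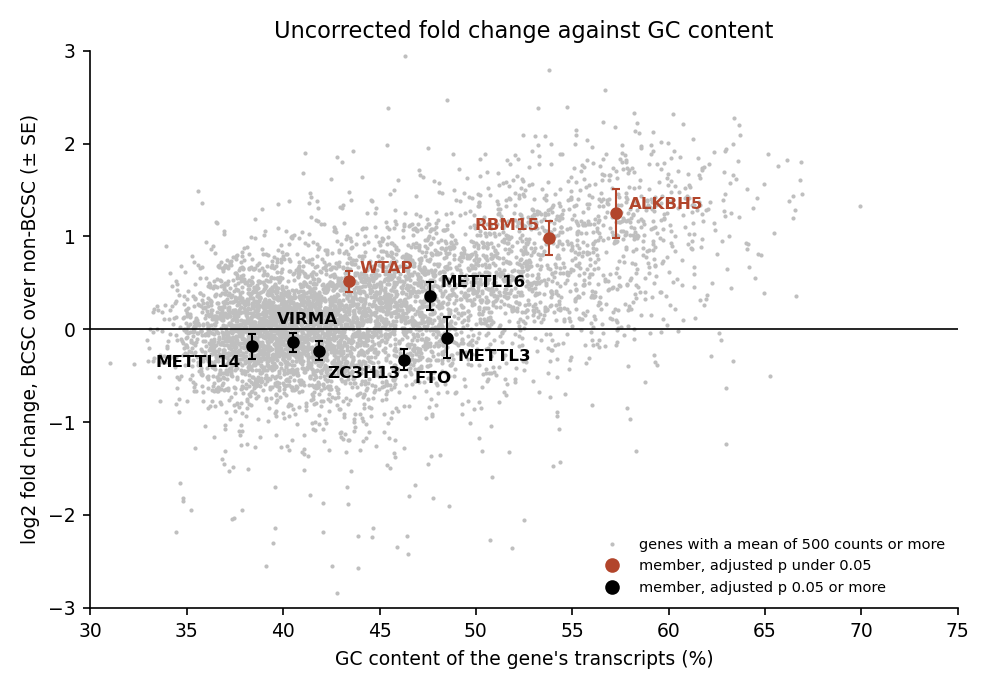
Log2 fold change of BCSC over non-BCSC against the GC content of each gene's transcripts in percent, with the members named (bars are SE, red for an adjusted p under 0.05) and the well-counted genes (500 counts or more on average) in grey. The grey points rise with GC content, and ALKBH5 (57.3%) and RBM15 (53.8%) lie at the right; 11 grey points fall outside the axes.

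GC content and fold change went together among the members too. Their Spearman correlation between GC content and log2 fold change was 0.68 (n = 9 genes, which share the 6 libraries). Under the all-gene curve it became -0.65 for the members, and -0.58 for the 5661 well-counted genes, whose median log2 fold change rose to 0.73. Under the curve fitted on those genes it was 0.28 for the members and 0.04 for the well-counted genes, whose median was then 0.01. The all-gene curve left 3 members higher at adjusted p under 0.05 (METTL14, WTAP and VIRMA), where 25.7% of all genes were higher, and 0 lower, where 10.5% were lower. The curve of well-counted genes left WTAP higher, where 8.27% of all genes were, and ZC3H13 and FTO lower, where 18.8% were. WTAP is the member that passed in the same direction without a correction and with either curve. Subtracting the olfactory receptor level, scaled to each gene's length, was followed by a new filter and scaling over 16532 genes. Their median log2 fold change was 0.09. All 9 member values were then lower by 0.13 to 0.23 on the log2 scale. In non-BCSC the members stood at 12.5 (RBM15) to 115 (FTO) times that level. The parts of the subtraction and of the new filter and scaling in these shifts were not tested. ALKBH5 was left at 1.09 (adjusted p = 0.0201) and RBM15 at 0.85 (adjusted p = 0.0111). FTO was then at -0.56 (adjusted p = 0.00563), ZC3H13 at -0.46 (adjusted p = 0.0133), VIRMA at -0.36 (adjusted p = 0.0210) and WTAP at 0.29 (adjusted p = 0.0796).

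**Figure D3:**
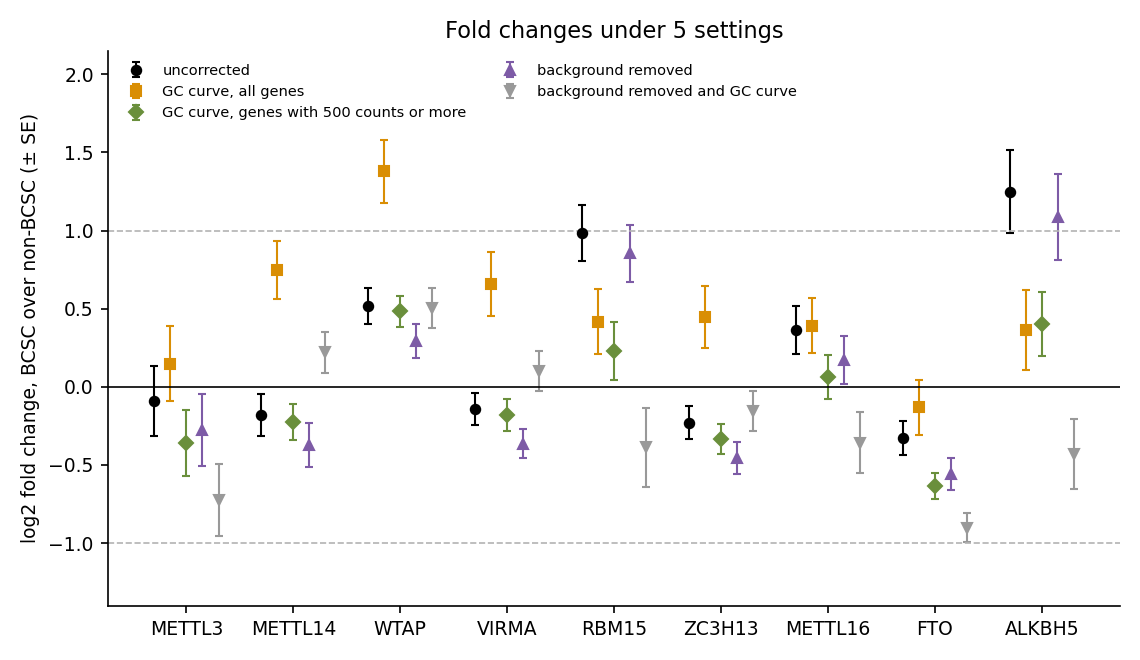
Log2 fold change of each member with its SE under 5 settings: uncorrected, with a GC and length curve from all genes or from well-counted genes (500 counts or more on average), with the olfactory receptor background removed, and with background removed and the all-gene curve. Dashed lines mark a 2-fold difference, and FTO is the member below 0 in all 5 while WTAP is the member above 0 in all 5.

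Levels of different members were compared per transcript length, as TPM (counts divided by transcript length and scaled to a common total). WTAP was highest in both groups, at 196 ± 35.7 TPM in BCSC and 175 ± 6.69 TPM in non-BCSC (SD, n = 3 each), and FTO came next with 126 ± 53.2 and 107 ± 6.63 TPM. The FTO groups overlapped on this scale (83.9 to 186 TPM in BCSC, 99.1 to 111 TPM in non-BCSC) and the BCSC mean was the higher, opposite to its CPM direction. TPM gives more weight to counts on short transcripts. BCSC replicates 1 and 3 had 308 and 464 counts on FTO-205, of 1065 bases, whereas FTO-206, with most FTO counts, has 11573 bases. The WTAP groups overlapped too, since the lowest BCSC library was at 168 TPM and the highest non-BCSC library at 179 TPM. ALKBH5 ranked 3rd in BCSC (89.6 ± 13.04 TPM) and 6th in non-BCSC (39.8 ± 13.4 TPM). ZC3H13, VIRMA and RBM15 followed it in BCSC at 81.4 ± 7.04, 74.6 ± 1.52 and 64.9 ± 6.02 TPM, and METTL3 at 48.0 ± 3.25 TPM. In BCSC the ranges of ALKBH5, ZC3H13 and VIRMA are not all separate, and neither are those of WTAP and FTO. METTL16 and METTL14 were the lowest in BCSC, at 32.6 ± 2.80 and 27.3 ± 0.77 TPM. In non-BCSC the order below FTO was ZC3H13 (101 ± 3.63 TPM), VIRMA (78.0 ± 2.70), METTL3 (47.0 ± 10.1), ALKBH5, METTL14 (33.0 ± 7.02), RBM15 (32.8 ± 6.92) and METTL16 (27.2 ± 9.77), and the ranges of the last 5 overlapped from neighbour to neighbour.

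Ratios between members within a library do not depend on the library's scaling, but these carry no correction for GC content. Being ratios of TPM, they also depend on how counts were split between transcripts of unlike length. RBM15 over METTL14 was 2.59, 2.37 and 2.18 in BCSC against 0.983, 0.985 and 1.01 in non-BCSC. ALKBH5 over METTL14 was 3.74, 2.96 and 3.15 in BCSC against 1.57, 1.29 and 0.794 in non-BCSC. Both ratios were apart between the groups, as were those of ALKBH5 and of RBM15 to METTL3, which averaged 1.89 ± 0.41 and 1.36 ± 0.23 in BCSC against 0.836 ± 0.18 and 0.702 ± 0.10 in non-BCSC. The ratio of the erasers, ALKBH5 over FTO, was 0.953, 0.931 and 0.468 in BCSC against 0.377, 0.470 and 0.258 in non-BCSC, and the groups overlapped by 1 library. The lowest BCSC ratio was in replicate 3, where FTO was at 186 TPM with 464 counts on the short FTO-205. In CPM both erasers were apart between the groups, in opposite directions. METTL14 over METTL3 also overlapped (0.571 ± 0.05 and 0.706 ± 0.09). ALKBH5 and RBM15 are 57.3% and 53.8% GC, against 38.4% for METTL14 and 48.5% for METTL3. Under the all-gene curve the log2 fold changes were 0.37 for ALKBH5, 0.42 for RBM15, 0.75 for METTL14 and 0.15 for METTL3. Under the well-counted curve they were 0.40, 0.23, -0.23 and -0.36 in the same order. The parts of GC content and of the transcript split in the ratios were not tested.

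The split of counts between transcripts varied among libraries, but no member transcript passed the edgeR test between the groups. The permutation test of protein-coding shares could not pass 0.05, since its smallest p with 3 against 3 libraries is 0.1. Of 87 member transcripts on file, 46 passed the filter for the transcript test and 0 were called, where 0.784% of the 46176 transcripts tested were called. At an unadjusted p under 0.05, 3 were higher and 2 lower in BCSC, and the lowest adjusted p was 0.101. DESeq2 called 1, FTO-205. The spread is wide, the biological coefficient of variation being 1.02 over transcripts and 0.45 over gene sums.

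ZC3H13 showed both directions within 1 gene. ZC3H13-201 had 1737, 1300 and 403 counts in BCSC against 2656, 1525 and 1974 in non-BCSC (log2 fold change -1.39 ± 0.53 SE, adjusted p = 0.263). ZC3H13-206, of nearly the same length (8024 against 8018 bases), had 2349, 1760 and 2647 counts in BCSC against 262, 660 and 503 in non-BCSC (1.69 ± 0.41, adjusted p = 0.101). After scaling, the groups did not overlap for either transcript, and the 2 differences have opposite signs. Both are annotated as protein-coding, and a read over their shared exons can be given to either.

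In WTAP, replicates of 1 group disagreed. WTAP-208, annotated as a target of nonsense-mediated decay, had 2306 and 1974 counts in BCSC replicates 1 and 2 and 0 in replicate 3, with 73, 0 and 0 in non-BCSC. WTAP-201, the protein-coding form with the most counts, had 132, 122 and 1389 counts in BCSC against 845, 707 and 407 in non-BCSC. BCSC replicate 3 was thus like non-BCSC in its split and unlike the other BCSC libraries. The protein-coding share of WTAP counts was 33.4%, 27.5% and 95.7% in BCSC against 90.8%, 95.9% and 98.2% in non-BCSC. Summed over protein-coding transcripts alone, the WTAP log2 fold change was -0.56 (adjusted p = 0.384).

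**Figure D4:**
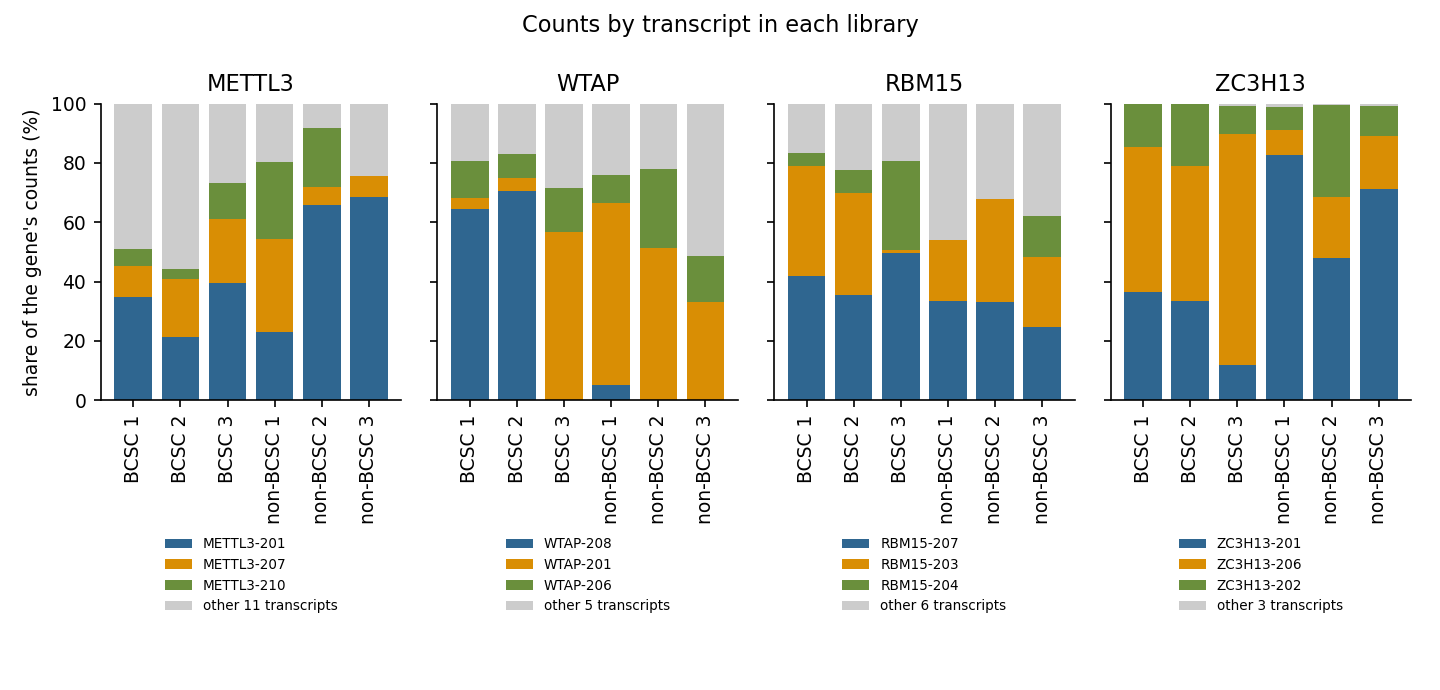
Share of each gene's counts (%) on its 3 most counted transcripts and on all others, as stacked bars for the 6 libraries, for METTL3, WTAP, RBM15 and ZC3H13. WTAP-208 fills most of the WTAP bar in BCSC replicates 1 and 2 and none of it in replicate 3, and ZC3H13-206 takes a larger share in each BCSC library than in any non-BCSC library.

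For METTL3, the main coding form METTL3-201 held 41.0% of all METTL3 counts. It had 210, 109 and 201 counts in BCSC against 77, 328 and 203 in non-BCSC, and the rest lay largely on retained-intron and decay forms. The protein-coding share was 32.8 ± 10.2% in BCSC and 52.9 ± 24.8% in non-BCSC (exact permutation test, two-sided, p = 0.3, adjusted p = 0.675 over 9 members). With 3 against 3 libraries, this test cannot go below 0.1. The lowest p over the 9 members was 0.2, and the adjusted values ran from 0.6 to 1.

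The other members were carried by 1 or a few forms. ALKBH5-201 held 94.9% of ALKBH5 counts, with 2603, 1193 and 1639 in BCSC against 611, 536 and 220 in non-BCSC (1.44 ± 0.43, adjusted p = 0.171). FTO-206 held 77.6% of FTO counts and overlapped between groups (-0.40 ± 0.23, adjusted p = 0.467). The shorter FTO-214 had 135, 97 and 165 counts in BCSC against 366, 280 and 169 in non-BCSC (-1.56 ± 0.48, adjusted p = 0.173). FTO-205, a decay form, was read in BCSC replicates 1 and 3 (308 and 464 counts) and at 0 in the other 4 libraries. METTL16-205 was read in BCSC replicate 2 alone (308 counts). RBM15-207, the leading RBM15 form, had 811, 434 and 605 counts in BCSC against 141, 192 and 103 in non-BCSC (1.53 ± 0.41, adjusted p = 0.130). VIRMA-201 and METTL14-201 held 75.2% and 96.4% of the counts of their genes and overlapped between groups.

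The rest of the pathway was described from lists of genes given by role. Each count is of genes at adjusted p under 0.05, to be read against 15.3% higher and 14.6% lower over all genes tested (median log2 fold change -0.05). Under the all-gene GC curve the shares were 25.7% and 10.5% (median 0.20), and under the curve of well-counted genes 8.27% and 18.8%. Over the well-counted genes alone the median was 0.18 without a correction and 0.73 under the all-gene curve. Both other subunits of the writer complex passed in the higher direction (median 0.76): RBM15B, the paralog of RBM15, at 1.14 ± 0.29 (adjusted p = 0.0168, 55.8% GC), and CBLL1, the HAKAI subunit, at 0.38 ± 0.11 (adjusted p = 0.0299, 41.7% GC). RBM15B was at 0.08 and 0.16 under the all-gene and well-counted curves (adjusted p = 0.814 and 0.574), and CBLL1 at 1.34 and 0.37 (adjusted p = 0.000458 and 0.0195). Of the other RNA adenosine methyltransferases and their partner TRMT112, 0 of 5 passed (median 0.58), and 3 passed higher under the all-gene curve (METTL5, ZCCHC4 and METTL4, list median 0.95). Under the curve of well-counted genes ZCCHC4 passed (0.82, adjusted p = 0.0485), and METTL5 and METTL4 did not (adjusted p = 0.830 and 0.201).

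Among 14 m6A readers, 13 were tested, 4 were higher at adjusted p under 0.05 and 0 were lower (median 0.19). Under the all-gene curve 11 were higher and 0 lower (median 0.85), where the median of the well-counted genes was 0.73. Under the curve of well-counted genes RBMX, PRRC2A and ELAVL1 passed higher, and IGF2BP2 passed lower (-0.37, adjusted p = 0.0133). PRRC2A had the largest difference, with 231 ± 73.0 CPM in BCSC against 64.4 ± 17.9 CPM in non-BCSC (log2 fold change 1.84 ± 0.25 SE, adjusted p = 0.00119), and at 61.5% GC it was at 0.30 under the all-gene curve (adjusted p = 0.160), at 0.65 under that of well-counted genes (adjusted p = 0.000442) and at -0.61 with background removal and GC correction (adjusted p = 0.0171). YTHDF1, which promotes translation of marked RNA, was at 0.79 ± 0.18 (adjusted p = 0.0119), and at 0.32 under the well-counted curve (adjusted p = 0.102). ELAVL1, which steadies RNA, was at 0.68 ± 0.18 (adjusted p = 0.0189), and RBMX at 0.44 ± 0.11 (adjusted p = 0.0135). Under the all-gene and well-counted curves ELAVL1 was at 0.87 and 0.42 (adjusted p = 0.00996 and 0.0467). RBMX was at 1.48 and 0.51 (adjusted p = 0.000536 and 0.00214). With background removal and GC correction ELAVL1 was at 0.15 (adjusted p = 0.463) and RBMX at 0.72 (adjusted p = 0.00373). YTHDF2, the decay reader followed by the study, was at 113 ± 15.2 and 95.7 ± 9.004 CPM and did not pass (0.24 ± 0.14, adjusted p = 0.203). It was at 0.58 under the all-gene curve (adjusted p = 0.0267), but at 0.01 under the well-counted curve (adjusted p = 0.959). With background removal and GC correction it was at -0.35 (adjusted p = 0.0967). IGF2BP1 had at most 17 counts in any library and was not tested.

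Of 7 other AlkB homologues, the family of the erasers, 6 were tested and 1 was higher (median 0.32), ALKBH6 at 2.27 ± 0.63 (adjusted p = 0.0250) from low levels of 6.32 ± 1.03 and 1.31 ± 0.87 CPM. ALKBH6 did not pass under the all-gene or the well-counted curve (adjusted p = 0.0573 and 0.136). It was at 1.39 times the olfactory receptor level in non-BCSC and 67.5 times in BCSC. With that level subtracted ALKBH6 was at 3.75 (edgeR adjusted p = 0.05055). ALKBH1 and ALKBH8 passed higher under the all-gene curve but not under the well-counted one (adjusted p = 0.547 and 0.492). There ALKBH2 passed lower (-0.996, adjusted p = 0.0460). The genes that supply the methyl donor and 2-oxoglutarate were 3 of 9 higher and 2 lower without a correction (median 0.55), and 4 higher and 0 lower under the all-gene curve (median 0.12). MAT2A, which makes S-adenosylmethionine and is a METTL16 target, was at 446 ± 13.01 and 300.1 ± 24.6 CPM (0.57 ± 0.10, adjusted p = 0.00334). MTRR was higher as well, by 0.82 ± 0.14, and by 1.76 and 0.88 under the all-gene and well-counted curves. AHCY was higher by 0.79 ± 0.22 without a correction, but was at 0.12 and -0.03 under the same curves (adjusted p = 0.649 and 0.882) and at -0.79 with background removal and GC correction (adjusted p = 0.00639). IDH1, a source of 2-oxoglutarate, was at 58.6 ± 2.79 CPM in BCSC against 119 ± 10.6 CPM in non-BCSC (-1.02 ± 0.12, adjusted p = 0.000810), and AHCYL1 was lower at -0.72 ± 0.12 (adjusted p = 0.00284). Under the curve of well-counted genes IDH1 was at -1.02 and AHCYL1 at -1.002, and under the all-gene curve they were at -0.06 and -0.43 and did not pass (adjusted p = 0.848 and 0.105). HIF1A, the gene of HIF1α, was lower at the RNA level, with 2333 ± 124 and 3154 ± 298 CPM (-0.44 ± 0.10, adjusted p = 0.0106). Its sign turned to 0.60 under the all-gene curve (adjusted p = 0.0585), while it was -0.47 under the well-counted curve (adjusted p = 0.00141). With background removed it was -0.67 (adjusted p = 0.00201), and with background removal and GC correction -0.04 (adjusted p = 0.835).

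**Figure D5:**
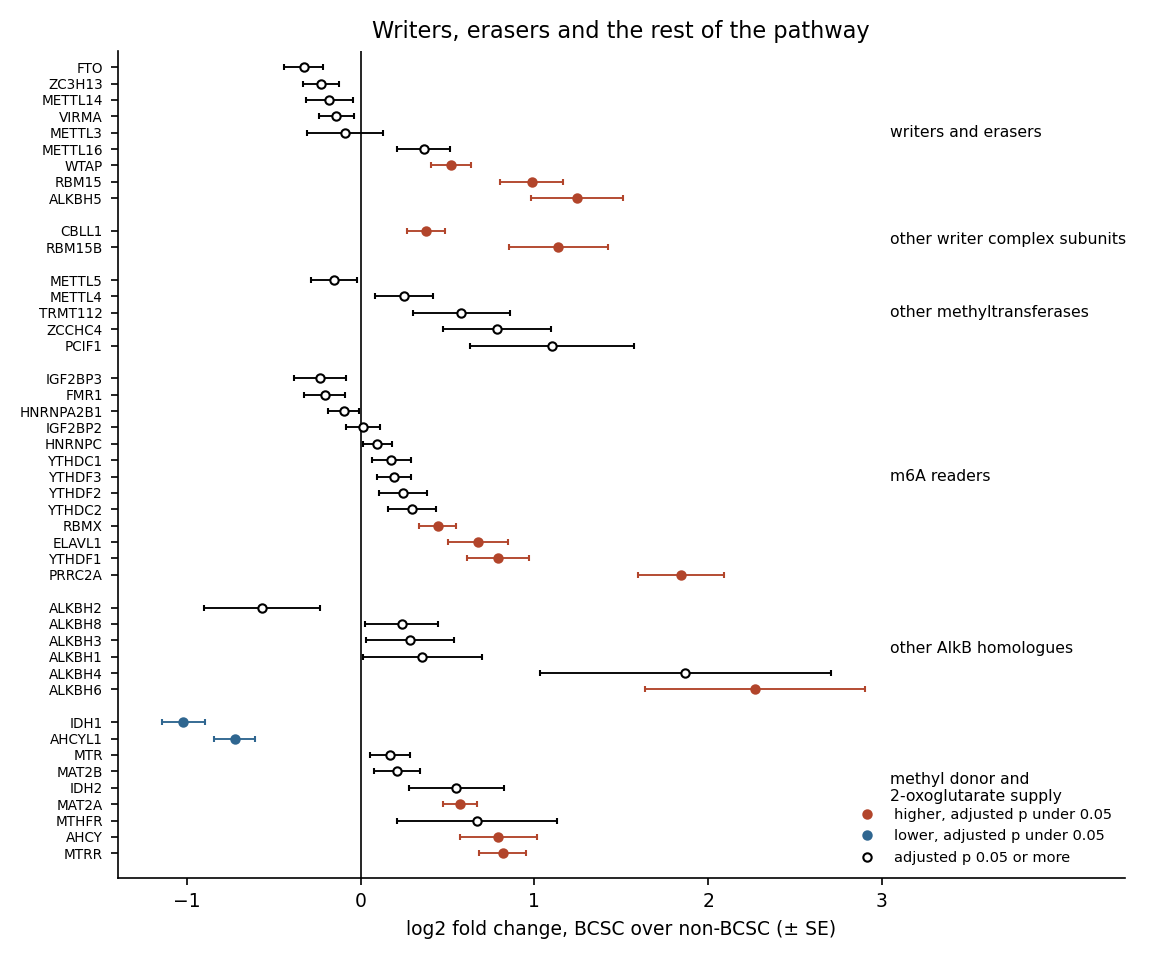
Log2 fold change of BCSC over non-BCSC (± SE) for the 9 writers and erasers and the tested genes of 5 further lists, filled where the adjusted p was under 0.05. ALKBH5, RBM15 and WTAP are filled to the right of 0 among the members, and IDH1 and AHCYL1 are the points filled to the left of 0.

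The genes most like a member were found among the well-counted ones, by the root mean square difference of log2 CPM over the 6 libraries after each gene's mean was removed. For ALKBH5 these were CDK9 (0.13), HAS3 (0.14) and PRDX2 (0.15), all between 55.9% and 58.2% GC. For FTO (46.3% GC) they were SERINC3 (0.04), RANBP9 (0.04) and EXOC4 (0.05), between 42.6% and 49.6% GC. Those of METTL3 (48.5% GC) were RPF2 (0.07), ARMT1 (0.07) and RIMKLB (0.08), between 36.3% and 40.4% GC. The likeness is over 6 libraries only and is a description. Other members also overlap genes on the opposite strand: METTL3 shares 388 bases with TOX4, which had 313 to 1406 counts, and ZC3H13 shares 263 bases with CPB2-AS1, which had 26 to 199. The genes over ALKBH5 and RBM15 had at most 25 counts in any library.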

How the data were processed

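The deposited table holds estimated counts, given by the authors as whole numbers for each transcript, with no normalization or filter. The authors trimmed adapters and aligned with HISAT2, to hg19 per the study's methods and to hg38 per the submitters' processing notes, which also name featureCounts and DESeq2. How reads were split between transcripts and whether strand was used is not stated. Of 252618 transcripts, 249787 (98.9%, holding 99.7% of counts) matched GENCODE on GRCh37 by identifier, and counts were summed per gene. BCSC was compared with non-BCSC by the robust quasi-likelihood test of edgeR 4.0.16 (R 4.3.3), with TMM scaling, filterByExpr and no covariate. Benjamini-Hochberg adjustment ran over all genes or transcripts tested. As in the study's general RNA-seq methods, a call needed an adjusted p under 0.05 and an absolute log2 fold change above 1. CPM used TMM-scaled totals. TPM used annotated transcript lengths. SE was derived from the fold change and p. GC and length offsets were loess curves (span 0.3) per library, fitted on all genes tested or, added after the data were seen, on genes averaging 500 counts or more. Background was the count per kilobase of olfactory receptor genes, multiplied by the unweighted mean length of each gene's annotated transcripts. After its subtraction the filter and scaling were fitted again. The GC and length curves used transcript lengths weighted by counts. Total counts ran from 9898588 to 21215352, so 3 counts, the limit a 0 allows, are 0.141 to 0.303 CPM, for counting error only. DESeq2 1.42.0 was an alternative. Scripts were tested on simulated counts. All 9 members are named, with pathway genes that passed at adjusted p under 0.05 or that the study follows. The members and lists were chosen with earlier results of these data known.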

Additional observations from a re-analysis of the deposited data

How the results depend on the processing

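Of the 9 members, 1 was called higher (ALKBH5). It remained 1 gene under RLE size factors, DESeq2, the stricter count filter, protein-coding transcripts, background removal and thinning (ALKBH5 in each), and under the all-gene GC curve the 1 gene called was WTAP. The count was 2 without an expression filter, 1 to 2 on leaving out each library (RBM15 joined without BCSC replicate 2, BCSC replicate 3 or non-BCSC replicate 2), 3 with no minimum fold, and 0 with the GC curve of well-counted genes or with background removal and GC correction together (these, and the GC curve with a replicate block, were chosen after seeing the data). Member transcripts called were 0, and 1 with DESeq2. Directions turned as follows. With the all-gene GC curve METTL3 was 0.15, METTL14 0.75, VIRMA 0.66 and ZC3H13 0.45, and with that curve and a replicate block they were 0.19, 0.74, 0.65 and 0.42. With background removal and GC correction METTL14 was 0.22, VIRMA 0.10, RBM15 -0.39, METTL16 -0.36 and ALKBH5 -0.43. METTL3 ran from -0.17 to 0.21 on leaving out each library, and WTAP was -0.56 over protein-coding transcripts. The cause was not tested. FTO kept its sign in all 18 settings of the count test, though not in mean TPM. The median of all genes tested moved from -0.05 to 0.20 with the all-gene GC curve and to -0.26 with the well-counted curve. Under RLE size factors, another scaling, it was -0.14. Over 49795 genes it was -1.02 without an expression filter and -1.20 with DESeq2. A replicate block left 1 called (ALKBH5, 1.29), and with it FTO was at -0.32 (edgeR adjusted p = 0.0308). Whether replicate numbers pair the libraries is not stated. Same-numbered deviations correlated at 0.18, 0.01 and 0.22, the best match for BCSC replicates 1 and 3, while BCSC replicate 2 correlated best with another number (0.05). With so few libraries these values cannot decide it. Depth limits the shares of single transcripts, many with under 100 counts, more than the gene sums.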
